A study of Homo sapiens with 12 samples.

Results

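The genes described here are 36 genes of the unfolded protein response and of secretion through the endoplasmic reticulum (ER), the compartment where secreted and membrane proteins are made and folded. They are a named list, matched by gene symbol to a table of 20114 genes and drawn up with earlier results of these data known. All 36 were in the table and all 36 passed the filter on low counts, which kept 13872 genes. By role they are 11 ER chaperones and cofactors, 4 disulfide isomerases, 6 genes of ER-associated degradation, 4 stress sensors, 4 transcription factors, 4 genes of the translocon and its associated TRAP complex, and 3 genes of the COPII vesicle coat.

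The cells were T47D, a line from a human breast carcinoma in which the progesterone receptor is present. All 6 groups were kept in hormone-stripped medium and starved of serum before treatment. The groups were vehicle for 6 h, a progestin, which binds and activates that receptor, at 100 pM for 6 h, the progestin at 10 nM for 6 h, and the same 3 conditions at 18 h. Each group had 2 libraries of total RNA (n = 2), which the labels number replicate 1 and replicate 3, written below as vehicle 1, vehicle 3 and so on. The series asks about different outputs at different progestin levels, so each dose is compared here with vehicle and with the other dose. Whether the 2 libraries within a group are from separate cultures is not stated, so every p-value measures only the spread between these samples. In bulk RNA, fewer cells with a transcript and less transcript per cell cannot be told apart. The name of the progestin is not given in the sources used here.

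As background, misfolded proteins in the ER are sensed by 3 membrane proteins, ERN1 (IRE1), EIF2AK3 (PERK) and ATF6, which the chaperone HSPA5 (BiP) holds inactive. ERN1 splices XBP1 mRNA, ATF6 is cut to release a transcription factor, and EIF2AK3 slows translation. The spliced XBP1 and cut ATF6 proteins raise chaperones, degradation genes and secretory machinery, through promoter sites called ER stress elements, and secretory cells of the breast use the same genes when they make milk proteins. Gene counts show none of the splicing, cutting or phosphorylation steps, so the values below are transcript levels only.

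Promoters are shown first because the ER stress elements are a sequence feature that some of these genes share. Promoters of 34 of the 36 genes were in the RefSeq table (GRCh38.p14, from 250 bases before to 50 bases after the start), and PDIA3 and SEC24D were not. Of these genes 8 had more than 1 start, and a gene counted as holding a sequence if the window of any start held it. The ER stress element was searched as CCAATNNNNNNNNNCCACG and the ER stress element II as ATTGGNCCACG, both on both strands. The first was found in 7 of the 34 genes (20.6%), namely HSPA5, HSP90B1, CALR, CANX, CRELD2, PDIA6 and XBP1, against 25 of 27305 genes in the table (0.0916%). The second was found in 3 (8.82%), HYOU1, SDF2L1 and HERPUD1, against 0.0696% of all genes. CANX, PDIA6 and XBP1 also had a window with neither element. The shorter letters CCACG, which both elements contain, were in 26 of the 34 (76.5%) and in 42.1% of all genes, and ACGTG, the core of XBP1-type sites, was in 19 (55.9%) and in 24.9%. The elements of these genes read as follows, with the fixed letters in capitals and each written 5′ to 3′ on the strand where it matches.

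HSPA5, ER stress element, chr9:125241391-125241409, minus strand: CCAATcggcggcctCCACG
HSP90B1, ER stress element, chr12:103930216-103930234, plus strand: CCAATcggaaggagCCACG
HSP90B1, ER stress element, chr12:103930321-103930339, minus strand: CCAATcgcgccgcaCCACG
CALR, ER stress element, chr19:12938384-12938402, minus strand: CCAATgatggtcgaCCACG
CANX, ER stress element, chr5:179698778-179698796, plus strand: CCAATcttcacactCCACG
HYOU1, ER stress element II, chr11:119057380-119057390, plus strand: ATTGGaCCACG
HYOU1, ER stress element II, chr11:119057274-119057284, plus strand: ATTGGaCCACG
SDF2L1, ER stress element II, chr22:21642114-21642124, minus strand: ATTGGtCCACG
CRELD2, ER stress element, chr22:49918554-49918572, minus strand: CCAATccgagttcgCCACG
PDIA6, ER stress element, chr2:10812853-10812871, minus strand: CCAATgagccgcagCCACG
HERPUD1, ER stress element II, chr16:56932025-56932035, plus strand: ATTGGgCCACG
XBP1, ER stress element, chr22:28800603-28800621, minus strand: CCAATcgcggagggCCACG

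The 250 bases before the start of 4 genes that the results turn on follow, on the strand of each gene, with element letters in capitals where there are any. HSPA5 (chr9:125241344-125241593, minus strand) and XBP1 (chr22:28800570-28800819, minus strand) hold an ER stress element at 66 to 48 and at 52 to 34 bases before the start. For XBP1 the start with the element is shown, and its other window (chr22:28800028-28800327) holds neither form. HYOU1 (chr11:119057206-119057455, minus strand) holds the ER stress element II at 185 to 175 and at 79 to 69 bases before the start, where it reads in reverse. MANF (chr3:51385041-51385290, plus strand) holds neither form as spelled.

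HSPA5: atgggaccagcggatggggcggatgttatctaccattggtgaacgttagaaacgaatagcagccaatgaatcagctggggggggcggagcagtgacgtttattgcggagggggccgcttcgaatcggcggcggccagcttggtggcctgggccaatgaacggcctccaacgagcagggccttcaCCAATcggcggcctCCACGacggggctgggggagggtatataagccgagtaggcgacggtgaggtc
HYOU1: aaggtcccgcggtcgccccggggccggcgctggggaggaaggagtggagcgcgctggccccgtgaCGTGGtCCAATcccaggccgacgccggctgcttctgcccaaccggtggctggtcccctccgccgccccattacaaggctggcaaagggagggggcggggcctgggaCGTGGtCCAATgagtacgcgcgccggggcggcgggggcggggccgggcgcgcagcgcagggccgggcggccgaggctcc
MANF: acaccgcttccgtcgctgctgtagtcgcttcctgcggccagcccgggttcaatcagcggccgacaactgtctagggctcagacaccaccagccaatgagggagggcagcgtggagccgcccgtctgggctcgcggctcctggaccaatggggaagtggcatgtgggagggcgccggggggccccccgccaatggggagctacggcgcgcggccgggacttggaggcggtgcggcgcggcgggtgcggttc
XBP1: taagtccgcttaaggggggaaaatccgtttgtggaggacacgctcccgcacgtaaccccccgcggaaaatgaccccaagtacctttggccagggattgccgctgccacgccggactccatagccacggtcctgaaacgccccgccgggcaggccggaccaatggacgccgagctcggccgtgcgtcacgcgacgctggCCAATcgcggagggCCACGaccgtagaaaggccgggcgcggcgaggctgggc

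A match describes letters in a window and is not a measured binding site. In the calls described below (edgeR adjusted p under 0.05), 22.6% of all genes tested rose and 19.4% fell at 10 nM for 6 h, and 19.0% rose and 15.2% fell at 18 h. Of the 7 genes with the first element, 1 rose at 10 nM for 6 h (PDIA6) and 2 at 18 h (CANX and PDIA6). Of the 3 with the second, 2 rose at 6 h (HYOU1 and SDF2L1) and 1 at 18 h (HYOU1). Of the 24 matched genes with neither, 9 rose and 3 fell at 6 h, and 11 rose and 2 fell at 18 h. At 100 pM for 18 h, XBP1 was the 1 gene with an element that rose, beside 6.57% of all genes. In a fit with the replicate number as a block, HYOU1, SDF2L1, PDIA6 and HERPUD1 were called higher there too. At 10 nM for 6 h that fit added CRELD2 and HERPUD1 higher and CALR lower among the genes with an element. For 18 h it added HSPA5, HSP90B1 and SDF2L1 higher and CALR lower. It also added calls among the genes with neither, and called 62.4% of all genes at 6 h and 56% at 18 h.

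Library totals ran from 34204970 to 41373890 counts, and the 36 genes held 0.790% to 1.10% of them. Chi-square per degree of freedom between the 2 libraries within each group was 42.0 to 64.0, so no library was a repeat of its partner. Luminal epithelial markers (9 of 9 detected) summed to 5332 to 11803 CPM (counts divided by the TMM-scaled library size), while basal markers summed to 0.999 to 9.04, immune markers to 2.82 to 5.50 and endothelial markers to 0.0812 to 0.927. Fibroblast markers summed to 66.3 to 115 CPM, nearly all of it COL1A1, with COL1A2, DCN, LUM and PDGFRB near 0. The luminal sum was 7008 and 7038 CPM at 10 nM against 11701 and 11773 in vehicle at 6 h, and 5332 and 5423 against 11141 and 11803 at 18 h. The basal sum was 5.88 and 9.04 CPM at 10 nM for 18 h and at most 2.28 in the other groups. Their part in the results below was not tested.

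At 10 nM these genes changed in both directions, with more rises than falls, and at 100 pM few passed the test. A call is an adjusted p under 0.05 in edgeR's quasi-likelihood test (Benjamini-Hochberg over all 13872 genes). At 10 nM for 6 h, 13 of the 36 rose, 3 fell and 20 were not called, against 22.6% of all genes called higher, 19.4% called lower and 42.0% called either way. So 44.4% of the 36 were called, near the share of all genes, and the called genes leaned upward, with 36.1% higher and 8.33% lower. The median log2 fold change was 0.19 for the 36 and -0.02 for all genes tested. At 18 h, 14 rose, 2 fell and 20 were not called (38.9% and 5.56%), against 19.0% higher and 15.2% lower, 34.1% in all, with medians of 0.27 and -0.00. In a fit with the replicate number as a block, 63.9% of the 36 were called at 6 h (18 higher and 5 lower). That fit called 66.7% at 18 h (20 higher and 4 lower), against 62.4% and 56% of all genes at the 2 times. When libraries were scaled by total counts alone, the median of all genes at 6 h moved from -0.02 to -0.16 and that of the 36 from 0.19 to 0.05, and 11 of the 36 rose and 3 fell. Without vehicle 1 the 18 h counts were 8 up and 2 down. The share of counts from mitochondrially encoded genes was also lower at 10 nM, at 6.73% and 8.93% in replicates 1 and 3 against 8.29% and 10.8% in vehicle at 6 h, and 6.75% and 9.49% against 7.84% and 10.7% at 18 h. Its part in these counts was not tested.

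At 100 pM, 2 of the 36 rose at 6 h (CREB3L2 and ATF6) and 0 fell (5.56% of the 36), against 2.88% of all genes called higher, 0.606% lower and 3.48% either way, with medians of 0.04 and -0.02. At 18 h, 2 rose (XBP1 and CREB3L2) and 0 fell (also 5.56%), against 6.57% of all genes called higher, 3.89% lower and 10.5% either way, with medians of 0.14 and -0.03. Total counts moved the 6 h median of the 36 from 0.04 to -0.02. At an unadjusted p under 0.05 the counts were 3 and 8 (8.33% and 22.2%, against 11.8% and 25.7% of all genes), and DESeq2 called 3 and 6 (8.33% and 16.7%, against 6.12% and 16.1%). At 6 h the count was 0 without vehicle 1, 0 without 100 pM 3 and 1 without 100 pM 1. At 18 h it was 0 without vehicle 1, and it was 10, all higher, in a fit that included the replicate number as a block. That is 27.8% of the 36, against 34.1% of all genes called in the same fit. The 8 genes added by the block were HYOU1, DNAJC3, SDF2L1, PDIA6, P4HB, HERPUD1, EDEM1 and SSR3, with log2 fold changes of 0.23 to 0.55.

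Set against 100 pM, 10 nM gave 12 genes higher and 4 lower at 6 h (33.3% and 11.1%), beside 20.1% and 16.8% of all genes, 37.0% in all. The 18 h comparison gave 12 higher and 3 lower (33.3% and 8.33%), beside 14.8% and 11.4%, 26.2% in all. Without 100 pM 3 these became 9 higher and 0 lower at 6 h and 6 higher and 1 lower at 18 h. Those at 18 h became 8 higher and 1 lower without 10 nM 1 and 6 and 2 without 10 nM 3. With no filter on low counts, and with total counts, the 18 h comparison gave 7 higher and 3 lower. It gave 6 and 3 with the 18 h libraries alone, 12 and 3 with DESeq2, and 15 and 6 with the block. The vehicle and 100 pM libraries enter more than 1 of these comparisons, so the comparisons are not independent of each other.

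**Figure D1:**
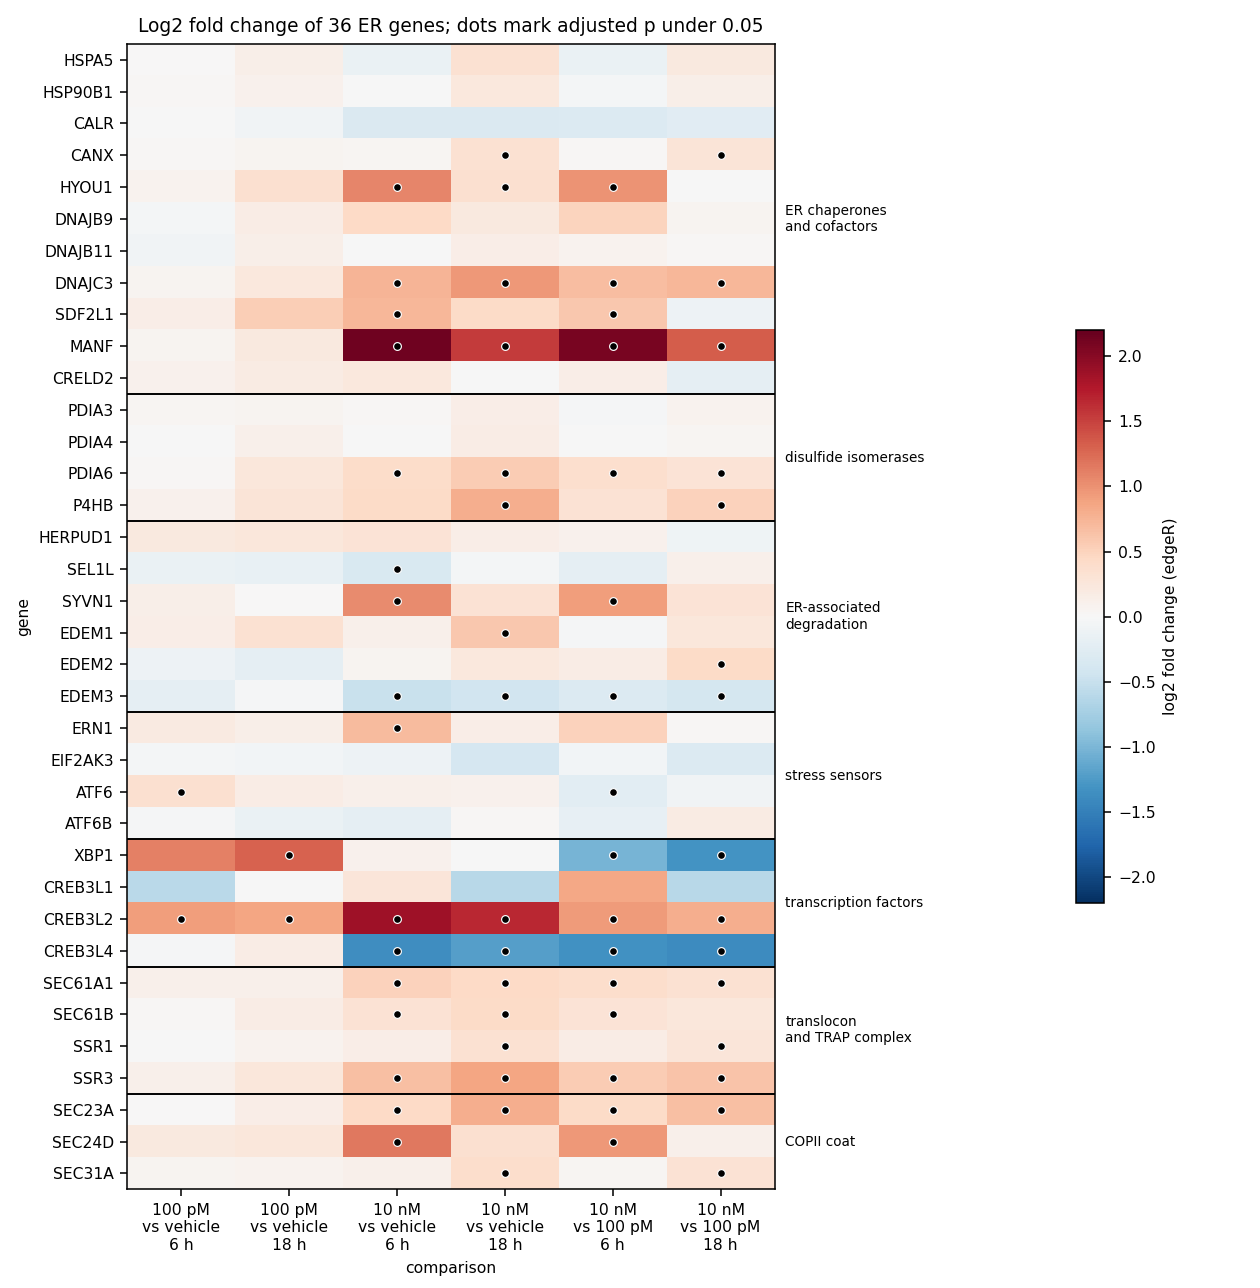
Log2 fold change (colour) of the 36 ER genes (rows, grouped by role) in 6 comparisons of dose at 6 h and 18 h (columns), with a dot where edgeR's adjusted p was under 0.05. The 2 columns of 100 pM against vehicle hold 2 dots each and the 2 columns of 10 nM against vehicle hold 16 each; XBP1 is high at 100 pM and CREB3L4 is low at 10 nM.

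Among the chaperones, MANF and HYOU1 rose most at 10 nM for 6 h and MANF and DNAJC3 for 18 h. The major chaperones HSPA5, HSP90B1 and CALR were not called in any comparison without the replicate block. HSPA5, the Hsp70 of the ER, measured 670 and 883 CPM in vehicle 1 and 3 at 6 h, 694 and 859 at 100 pM, and 624 and 778 at 10 nM. At 18 h it measured 684 and 898 CPM in vehicle, 853 and 870 at 100 pM, and 853 and 1139 at 10 nM. The groups overlapped at both times, and replicate 3 was the higher library in every group. The log2 fold change of HSPA5 at 10 nM was -0.15 ± 0.21 (SE) at 6 h (edgeR adjusted p = 0.609) and 0.33 ± 0.21 at 18 h (edgeR adjusted p = 0.262, with the block 0.00599). HSP90B1, the Hsp90 of the ER, gave -0.01 ± 0.24 and 0.22 ± 0.24 (edgeR adjusted p = 0.518 at 18 h, with the block 0.0171). CALR, a lectin chaperone, gave -0.31 ± 0.37 and -0.32 ± 0.37 (edgeR adjusted p = 0.535 and 0.545, with the block 0.00637 and 0.00515).

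MANF, a secreted ER stress factor, measured 20.9 and 24.7 CPM in vehicle, 22.2 and 25.5 at 100 pM and 98.3 and 104 at 10 nM at 6 h. The 18 h levels were 21.1 and 26.8 CPM in vehicle, 28.7 and 26.5 at 100 pM, and 66.3 and 73.3 at 10 nM. The 10 nM libraries stood far above all others at both times, and the 100 pM libraries lay among or just above vehicle. MANF rose 4.43-fold at 6 h (log2 2.15 ± 0.14, edgeR adjusted p = 9.89e-06) and 2.92-fold at 18 h (1.54 ± 0.14, edgeR adjusted p = 6.04e-05). At 100 pM its log2 fold change was 0.06 ± 0.14 at 6 h and 0.21 ± 0.14 at 18 h, neither called. The calls at 10 nM held under each of the alternatives run.

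HYOU1, an exchange factor for HSPA5, measured 248 and 250 CPM in vehicle, 273 and 251 at 100 pM and 505 and 539 at 10 nM at 6 h. Its levels at 18 h were 280 and 258 CPM in vehicle, 382 and 308 at 100 pM, and 354 and 335 at 10 nM. At 6 h only the 10 nM libraries were high, and at 18 h both doses lay above vehicle and overlapped each other. HYOU1 rose 2.09-fold at 10 nM for 6 h (log2 1.07 ± 0.11, edgeR adjusted p = 0.000112) and 1.28-fold at 18 h (0.36 ± 0.11, edgeR adjusted p = 0.0341). The 18 h call was lost without any 1 of its 4 libraries (edgeR adjusted p 0.0594 to 0.172), with the 18 h libraries alone (0.0907) and with total counts (0.0507). At 100 pM for 18 h the change was also 0.36 ± 0.11 but was not called (edgeR adjusted p = 0.0754, with the block 0.00592).

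DNAJC3, a J-protein partner of HSPA5, measured 68.9 and 70.6 CPM in vehicle, 73.2 and 71.9 at 100 pM and 112 and 121 at 10 nM at 6 h. In the 18 h libraries the values were 68.3 and 73.3 CPM in vehicle, 83.2 and 82.6 at 100 pM, and 135 and 139 at 10 nM. The groups did not overlap at either time and followed the order of dose. DNAJC3 rose at 10 nM by log2 0.74 ± 0.07 at 6 h (edgeR adjusted p = 6.90e-05) and 0.96 ± 0.07 at 18 h (edgeR adjusted p = 2.31e-05). At 100 pM its log2 fold change was 0.23 ± 0.07 at 18 h (edgeR adjusted p = 0.076, with the block 0.0111). At 100 pM for 6 h DNAJC3 was not called. Its log2 fold change there was 0.06 ± 0.06 with the block (edgeR adjusted p = 0.639) and -0.00167 with total counts. SDF2L1, which works with J-proteins in the ER, rose at 6 h (log2 0.73 ± 0.15, edgeR adjusted p = 0.00498) and measured 0.43 ± 0.15 at 18 h (edgeR adjusted p = 0.0611, with the block 0.00449). CANX, a membrane-bound lectin chaperone, rose at 18 h (0.33 ± 0.08, edgeR adjusted p = 0.0140), a call lost without vehicle 1 or 10 nM 3 (edgeR adjusted p 0.0941 and 0.0607).

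The other 3 chaperone genes were not called in any comparison without the block. DNAJB9, a J-protein that represses ERN1, gave log2 fold changes of 0.44 ± 0.17 at 10 nM for 6 h (edgeR adjusted p = 0.0711, with the block 0.0182) and 0.21 ± 0.17 at 18 h. DNAJB11, another J-protein, gave -0.00 ± 0.07 and 0.15 ± 0.07. CRELD2, a secreted stress-induced protein, gave 0.23 ± 0.22 and -0.01 ± 0.22 (edgeR adjusted p = 0.439 at 6 h, with the block 0.0196). In all, 4 of the 11 rose and 0 fell at each time at 10 nM. Of all genes, 22.6% rose and 19.4% fell at 6 h, and 19.0% and 15.2% at 18 h.

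**Figure D2:**
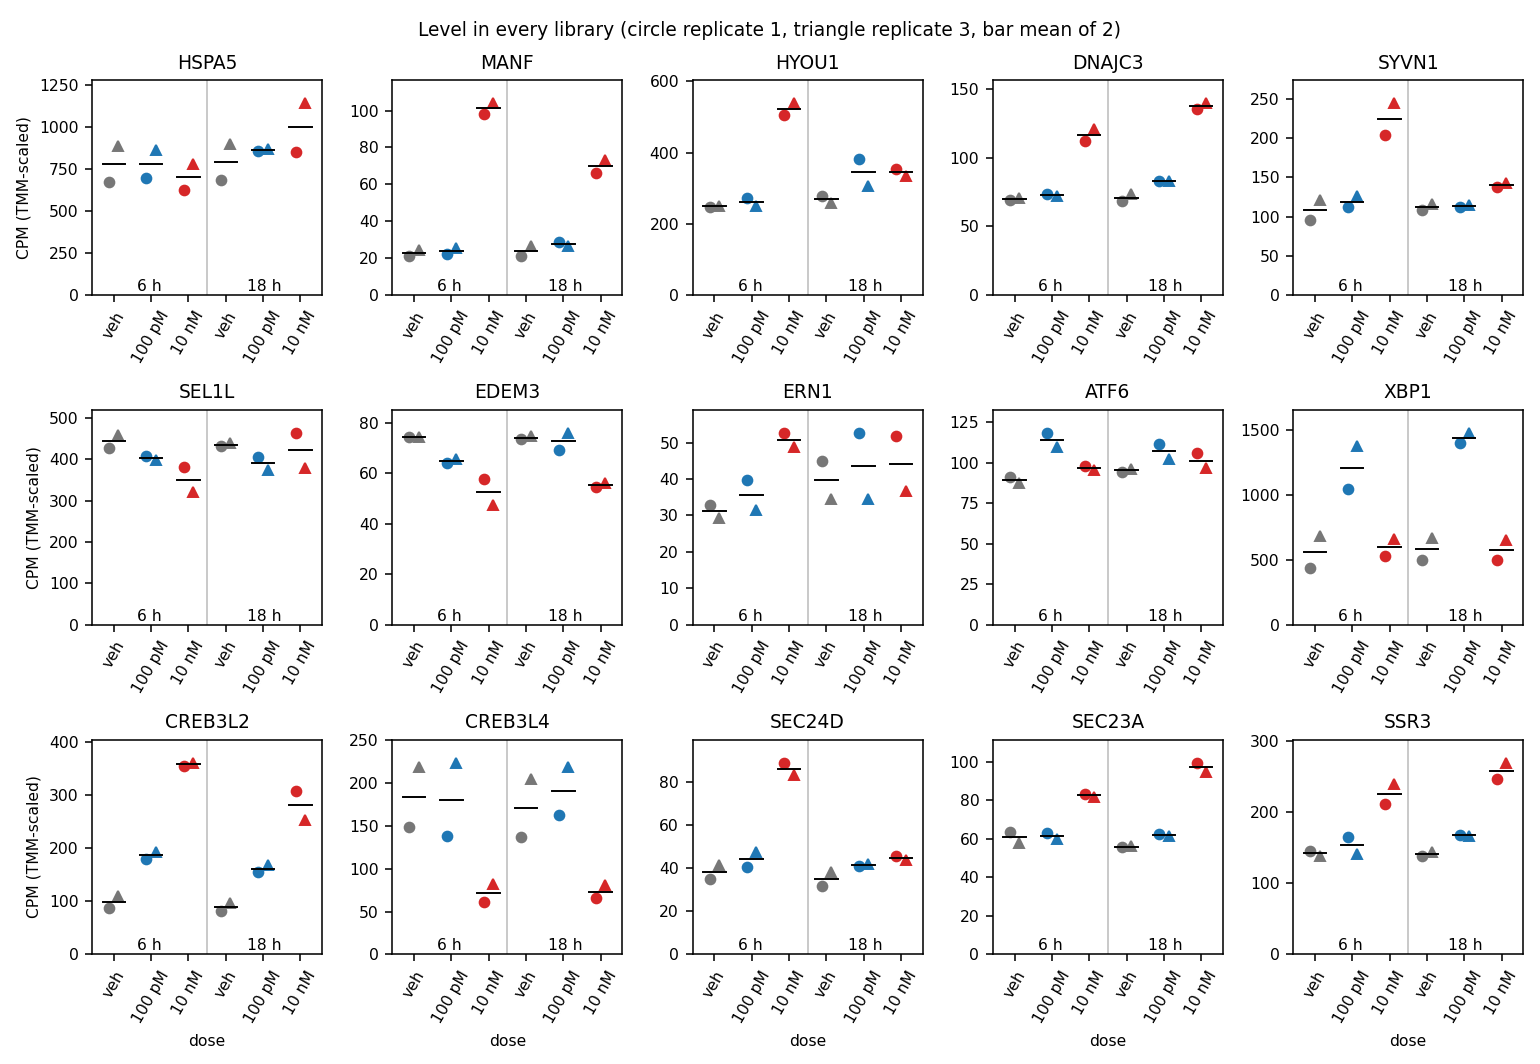
TMM-scaled CPM (vertical axes, from 0) of 15 genes in all 12 libraries by dose and time, with circles for replicate 1, triangles for replicate 3 and a bar at the mean of the 2. MANF, HYOU1, SYVN1 and SEC24D stand highest at 10 nM for 6 h, XBP1 at 100 pM, and CREB3L4 is lowest at 10 nM.

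Among the disulfide isomerases, which form and rearrange disulfide bonds, PDIA6 and P4HB rose and PDIA3 and PDIA4 were not called. PDIA6, whose exons overlap ATP6V1C2 on the other strand, rose at 10 nM by log2 0.40 ± 0.08 at 6 h (edgeR adjusted p = 0.00539) and 0.55 ± 0.08 at 18 h (edgeR adjusted p = 0.00121). P4HB, also a subunit of collagen prolyl hydroxylase, measured 859 and 1040 CPM in vehicle and 1534 and 1774 at 10 nM at 18 h, so the groups did not overlap. Its log2 fold change was 0.80 ± 0.15 at 18 h (edgeR adjusted p = 0.00368) and 0.41 ± 0.15 at 6 h (edgeR adjusted p = 0.0545, with the block 9.60e-05). PDIA3 gave 0.03 ± 0.25 and 0.14 ± 0.25, and PDIA4 gave -0.02 ± 0.23 and 0.16 ± 0.23.

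The genes of ER-associated degradation, which send misfolded proteins to the proteasome, did not move together. SYVN1, the ubiquitin ligase HRD1, measured 95.7 and 121 CPM in vehicle, 112 and 126 at 100 pM and 203 and 244 at 10 nM at 6 h, and 109 and 116, 112 and 115, and 138 and 142 CPM at 18 h. Libraries at 10 nM were the highest at both times, by more at 6 h. SYVN1 rose by log2 1.04 ± 0.13 at 6 h (edgeR adjusted p = 0.000286) and measured 0.32 ± 0.13 at 18 h (edgeR adjusted p = 0.0881, with the block 0.00389). Its exons overlap FAU on the same strand and MRPL49 on the other, so reads there may be shared.

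SEL1L, the adaptor that binds SYVN1, measured 428 and 460 CPM in vehicle, 407 and 398 at 100 pM and 381 and 321 at 10 nM at 6 h. At 18 h it measured 432 and 439 CPM in vehicle, 407 and 375 at 100 pM, and 464 and 379 at 10 nM. Both 10 nM libraries were the lowest at 6 h and lay on both sides of vehicle at 18 h. SEL1L fell by 0.34 ± 0.12 on the log2 scale at 6 h (edgeR adjusted p = 0.0454), a call lost without vehicle 1, vehicle 3 or 10 nM 3 (edgeR adjusted p 0.0817, 0.196 and 0.250), and measured -0.05 ± 0.12 at 18 h.

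EDEM3, a mannose-trimming enzyme that marks glycoproteins for degradation, measured 74.4 and 74.3 CPM in vehicle, 64.1 and 65.6 at 100 pM and 57.9 and 47.6 at 10 nM at 6 h. The 18 h levels were 73.7 and 74.6 CPM in vehicle, 69.4 and 76.0 at 100 pM, and 54.8 and 56.0 at 10 nM. The 10 nM libraries were the lowest at both times. EDEM3 fell by 0.50 ± 0.10 on the log2 scale at 6 h (edgeR adjusted p = 0.00315) and by 0.42 ± 0.10 at 18 h (edgeR adjusted p = 0.00906, and 0.0501 without 10 nM 1). Its relative EDEM1 rose at 18 h (log2 0.59 ± 0.14, edgeR adjusted p = 0.0126), a call lost without vehicle 1 or 10 nM 1 (edgeR adjusted p 0.0808 and 0.0824), and measured 0.12 ± 0.14 at 6 h. EDEM2 was higher at 10 nM than at 100 pM at 18 h (0.42 ± 0.09, edgeR adjusted p = 0.00843) and was not called against vehicle (0.23 ± 0.09, edgeR adjusted p = 0.0762, with the block 0.0210). HERPUD1, which gathers the degradation complex, was not called, with 0.30 ± 0.21 at 6 h (edgeR adjusted p = 0.302, with the block 0.0128) and 0.15 ± 0.21 at 18 h.

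Of the 4 sensors, ERN1 rose at 10 nM and ATF6 at 100 pM, both at 6 h. ERN1 measured 32.9 and 29.4 CPM in vehicle, 39.8 and 31.6 at 100 pM and 52.6 and 48.7 at 10 nM at 6 h. Its levels at 18 h were 45.0 and 34.6 CPM in vehicle, 52.5 and 34.6 at 100 pM, and 51.7 and 36.6 at 10 nM. Libraries at 10 nM were the highest at 6 h, and at 18 h the groups overlapped, with replicate 1 above replicate 3 in each. ERN1 rose at 10 nM for 6 h (log2 0.70 ± 0.24, edgeR adjusted p = 0.0419), a call lost without any 1 of its 4 libraries (edgeR adjusted p 0.0832 to 0.178) and with scaling by total counts (0.0714). Its 18 h log2 fold change was 0.15 ± 0.24 (edgeR adjusted p = 0.665).

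ATF6 measured 91.2 and 87.2 CPM in vehicle, 118 and 110 at 100 pM and 98.2 and 95.3 at 10 nM at 6 h. In the 18 h libraries the values were 94.6 and 96.1 CPM in vehicle, 112 and 102 at 100 pM, and 106 and 96.5 at 10 nM. At 6 h the 100 pM libraries were the highest and no groups overlapped, and at 18 h the doses overlapped. ATF6 rose at 100 pM for 6 h (log2 0.36 ± 0.08, edgeR adjusted p = 0.0491) and was lower at 10 nM than at 100 pM (-0.24 ± 0.08, edgeR adjusted p = 0.0435). Both calls were lost without any 1 of their 4 libraries (edgeR adjusted p 0.114 to 0.312 and 0.0708 to 0.161) and with the 6 h libraries alone (0.102 and 0.0532).

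EIF2AK3 measured 62.1 and 50.1 CPM in vehicle, 58.2 and 50.3 at 100 pM and 52.6 and 51.5 at 10 nM at 6 h. At 18 h it measured 68.5 and 55.5 CPM in vehicle, 62.4 and 56.3 at 100 pM, and 52.0 and 44.5 at 10 nM. Both 10 nM libraries were the lowest at 18 h and the groups overlapped at 6 h. Its log2 fold change at 10 nM was -0.11 ± 0.15 at 6 h and -0.36 ± 0.15 at 18 h (edgeR adjusted p = 0.0881, with the block 0.00132). ATF6B, a relative of ATF6, was not called, with -0.20 ± 0.15 and 0.03 ± 0.15 (edgeR adjusted p = 0.329 at 6 h, with the block 0.0185).

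The transcription factors differed most from each other. XBP1 measured 438 and 682 CPM in vehicle, 1045 and 1377 at 100 pM and 534 and 665 at 10 nM at 6 h. The 18 h levels were 499 and 669 CPM in vehicle, 1400 and 1479 at 100 pM, and 503 and 652 at 10 nM. The 100 pM libraries stood above all others at both times, and the 10 nM libraries lay within the range of vehicle. XBP1 rose 2.46-fold at 100 pM for 18 h (log2 1.30 ± 0.25, edgeR adjusted p = 0.0143, and 0.112 without vehicle 1 or 0.0647 without 100 pM 3). At 6 h its log2 fold change of 1.11 ± 0.25 was not called (edgeR adjusted p = 0.0525, with the block 1.51e-05), while DESeq2 called it. At 10 nM the log2 fold change against vehicle was 0.10 ± 0.25 at 6 h (edgeR adjusted p = 0.781) and -0.02 ± 0.25 at 18 h (edgeR adjusted p = 0.968).

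Tested between the doses, XBP1 was lower at 10 nM than at 100 pM by log2 -1.01 ± 0.25 at 6 h (edgeR adjusted p = 0.0129) and -1.32 ± 0.25 at 18 h (edgeR adjusted p = 0.00543). The 6 h call was lost without 100 pM 3 or 10 nM 1 (edgeR adjusted p 0.0956 and 0.0902), and the 18 h call held under each alternative run. XBP1 at both times, ATF6 at 6 h and EDEM2 at 18 h were the members called between the doses and not between 10 nM and vehicle. The table counts reads per gene, so spliced and unspliced XBP1 mRNA were counted together.

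CREB3L2, a membrane-bound factor of the secretory pathway, measured 88.4 and 110 CPM in vehicle, 180 and 193 at 100 pM and 356 and 362 at 10 nM at 6 h. Its levels at 18 h were 81.8 and 96.8 CPM in vehicle, 156 and 169 at 100 pM, and 309 and 253 at 10 nM. The groups did not overlap at either time and followed the order of dose. CREB3L2 rose 1.88-fold at 100 pM (log2 0.91 ± 0.14, edgeR adjusted p = 0.00715) and 3.62-fold at 10 nM (1.86 ± 0.14, edgeR adjusted p = 2.16e-05) at 6 h. After 18 h it rose 1.82-fold (0.86 ± 0.14, edgeR adjusted p = 0.00593) and 3.15-fold (1.66 ± 0.14, edgeR adjusted p = 4.84e-05). It was the 1 member called in all 6 comparisons of dose. The 100 pM call was lost at 6 h without vehicle 1 or 100 pM 3 (edgeR adjusted p 0.0663 and 0.0677) and at 18 h without vehicle 1 (0.0568).

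CREB3L4, a relative of CREB3L2, measured 149 and 219 CPM in vehicle, 138 and 224 at 100 pM and 61.0 and 82.0 at 10 nM at 6 h. In the 18 h libraries the values were 137 and 205 CPM in vehicle, 163 and 219 at 100 pM, and 65.8 and 81.2 at 10 nM. The 10 nM libraries were the lowest at both times, and vehicle and 100 pM overlapped. CREB3L4 fell at 10 nM to 0.389 of vehicle at 6 h (log2 -1.36 ± 0.31, edgeR adjusted p = 0.00813) and to 0.430 at 18 h (-1.22 ± 0.31, edgeR adjusted p = 0.0167). Both calls were lost without vehicle 3 or 10 nM 1 (edgeR adjusted p 0.0569 and 0.0637 at 6 h, 0.105 and 0.0975 at 18 h). Exons of CREB3L4 overlap JTB and SLC39A1 on the other strand, and the strand setting of the counting is not given, so reads of these genes cannot be told apart there. CREB3L1, the third of this family, was at 0.685 to 2.82 CPM in all libraries and was not called, with standard errors of 0.59 to 0.64 in log2.

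Of the 4 translocon and TRAP genes, which carry new proteins into the ER, 3 rose at 10 nM for 6 h and 4 for 18 h, beside 22.6% and 19.0% of all genes. SSR3, a subunit of the TRAP complex beside the channel, measured 145 and 139 CPM in vehicle and 211 and 240 at 10 nM at 6 h, and 139 and 144 against 247 and 270 at 18 h. Libraries at 10 nM were the highest at both times. SSR3 rose by log2 0.66 ± 0.10 (edgeR adjusted p = 0.000805) and 0.87 ± 0.10 (edgeR adjusted p = 0.000239). SEC61A1, the channel itself, whose exons overlap RUVBL1 on the other strand, rose by 0.51 ± 0.08 and 0.45 ± 0.08 (edgeR adjusted p = 0.00117 and 0.00297). SEC61B, its small subunit, rose by 0.32 ± 0.09 and 0.42 ± 0.09 (edgeR adjusted p = 0.0211 and 0.0081). Its 6 h call was lost with total counts (0.118), with the 6 h libraries alone (0.0694) and without vehicle 1, vehicle 3 or 10 nM 3 (0.0515, 0.125 and 0.115), and its 18 h call without vehicle 1 (0.0505). SSR1, another TRAP subunit, rose at 18 h (0.33 ± 0.07, edgeR adjusted p = 0.00609, and 0.0541 without vehicle 1 or 0.0527 without 10 nM 3) and measured 0.14 ± 0.07 at 6 h (edgeR adjusted p = 0.130, with the block 0.0415).

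Of the 3 genes of the COPII coat, which buds vesicles from the ER, SEC24D and SEC23A rose at 10 nM for 6 h, and SEC23A and SEC31A for 18 h. SEC24D, a cargo-binding subunit, measured 34.8 and 41.7 CPM in vehicle, 40.6 and 47.7 at 100 pM and 89.0 and 83.1 at 10 nM at 6 h. At 18 h it measured 31.6 and 38.4 CPM in vehicle, 41.03 and 41.9 at 100 pM, and 45.7 and 43.8 at 10 nM. Both 10 nM libraries were far above the rest at 6 h and just above 100 pM at 18 h. SEC24D rose 2.25-fold at 6 h (log2 1.17 ± 0.13, edgeR adjusted p = 0.000149) and measured 0.36 ± 0.13 at 18 h (edgeR adjusted p = 0.060, with the block 0.00859). SEC23A, its partner in the inner coat, rose by 0.44 ± 0.07 at 6 h (edgeR adjusted p = 0.00129) and 0.80 ± 0.07 at 18 h (edgeR adjusted p = 6.39e-05). SEC31A, of the outer coat, rose at 18 h (0.39 ± 0.09, edgeR adjusted p = 0.00776, and 0.0594 without vehicle 1) and measured 0.11 ± 0.09 at 6 h.

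Over time, 9 genes rose at 10 nM at both 6 h and 18 h, namely HYOU1, DNAJC3, MANF, PDIA6, CREB3L2, SEC61A1, SEC61B, SSR3 and SEC23A, and EDEM3 and CREB3L4 fell at both. SDF2L1, SYVN1, ERN1 and SEC24D were called higher at 6 h alone, and CANX, P4HB, EDEM1, SSR1 and SEC31A at 18 h alone. SEL1L was called lower at 6 h alone, and 15 genes were called at neither time. How many of all genes were called at both times was not counted, so these counts have no such share beside them. A call at 1 time and not the other does not show that the times differ, so the difference itself was tested as an interaction. The 10 nM effect was smaller at 18 h than at 6 h for SEC24D (-0.81 ± 0.18, edgeR adjusted p = 0.0262), SYVN1 (-0.73 ± 0.18, edgeR adjusted p = 0.0382) and HYOU1 (-0.71 ± 0.15, edgeR adjusted p = 0.0255). These 3 are 8.33% of the 36, beside 5.99% of all genes called in that direction, 4.55% in the other and 10.5% in either. Without 1 library the count was 0 to 2, and it was 0 without vehicle 1 or 10 nM 3 of 6 h, and without vehicle 3, 10 nM 1 or 10 nM 3 of 18 h. The count was 1 without 10 nM 1 of 6 h or vehicle 1 of 18 h.

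With the block, 11 of the 36 were called for a difference between the times (30.6%, against 35.1% of all genes in that fit), 5 lower at 18 h and 6 higher. The added genes lower at 18 h were MANF (log2 -0.60 ± 0.13) and ERN1 (-0.56 ± 0.15), and those higher were HSPA5 (0.47 ± 0.12), CANX (0.29 ± 0.09), P4HB (0.39 ± 0.09), EDEM1 (0.48 ± 0.17), SEC23A (0.36 ± 0.08) and SEC31A (0.28 ± 0.08), with edgeR adjusted p of 0.00389 to 0.0445. For 100 pM, edgeR called 0 of the 36 for a difference between the times, beside 0.0144% of all genes, with 0 at an unadjusted p under 0.05, 0 with DESeq2 and 0 with the block. In vehicle, 18 h against 6 h, edgeR called 0 of the 36 and 0 of all genes (0.00%), with 0 and 178 at an unadjusted p under 0.05, 0 and 2 with DESeq2, and 0 and 4 with the block.

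**Figure D3:**
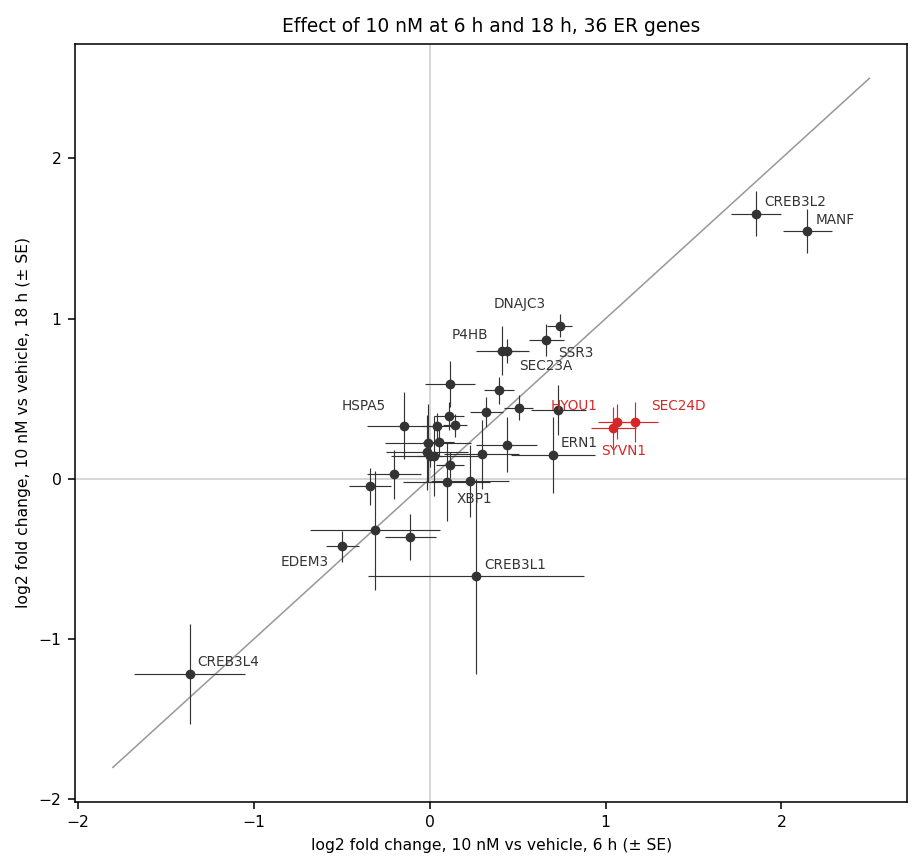
Log2 fold change of 10 nM against vehicle at 6 h (horizontal) and at 18 h (vertical) for the 36 genes, with bars of 1 SE and the line of equal change. SEC24D, SYVN1 and HYOU1 (red, called for the difference between times) lie below the line near 1 on the horizontal axis and under 0.5 on the vertical axis.

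The replicate number carried a difference of its own in many of these genes, as it did over all genes tested. The difference, replicate 3 minus replicate 1, correlated between pairs of groups with a median of 0.681 over all genes and 0.709 over the 36. Replicate 3 was above replicate 1 in all 6 groups for 12 of the 36, and below it in all 6 for ERN1, HERPUD1 and EIF2AK3. The share of all genes shifted the same way in all 6 groups was not counted. The median ratio of replicate 3 to replicate 1 (on the log2(CPM + 1) scale) was 1.54 for CALR, 1.40 for CREB3L4, 1.32 for PDIA3, 1.31 for XBP1, 1.29 for HSP90B1 and PDIA4 and 1.28 for HSPA5. The same ratio was 0.787 for ERN1 and 0.804 for HERPUD1. By contrast, it was 1.03 for DNAJC3, 1.02 for SSR3 and 0.968 for SEC23A, whose standard errors in the dose comparisons were 0.07 to 0.10. The share of counts from 13 mitochondrially encoded genes ran from 6.69% to 8.29% in replicate 1 and from 8.59% to 10.8% in replicate 3, and its part in these ratios was not tested. Fits without 1 library held no block, so the groups compared then differed in replicate number as well as in treatment. The part of the replicate difference in the calls lost in those fits was not tested.

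**Figure D4:**
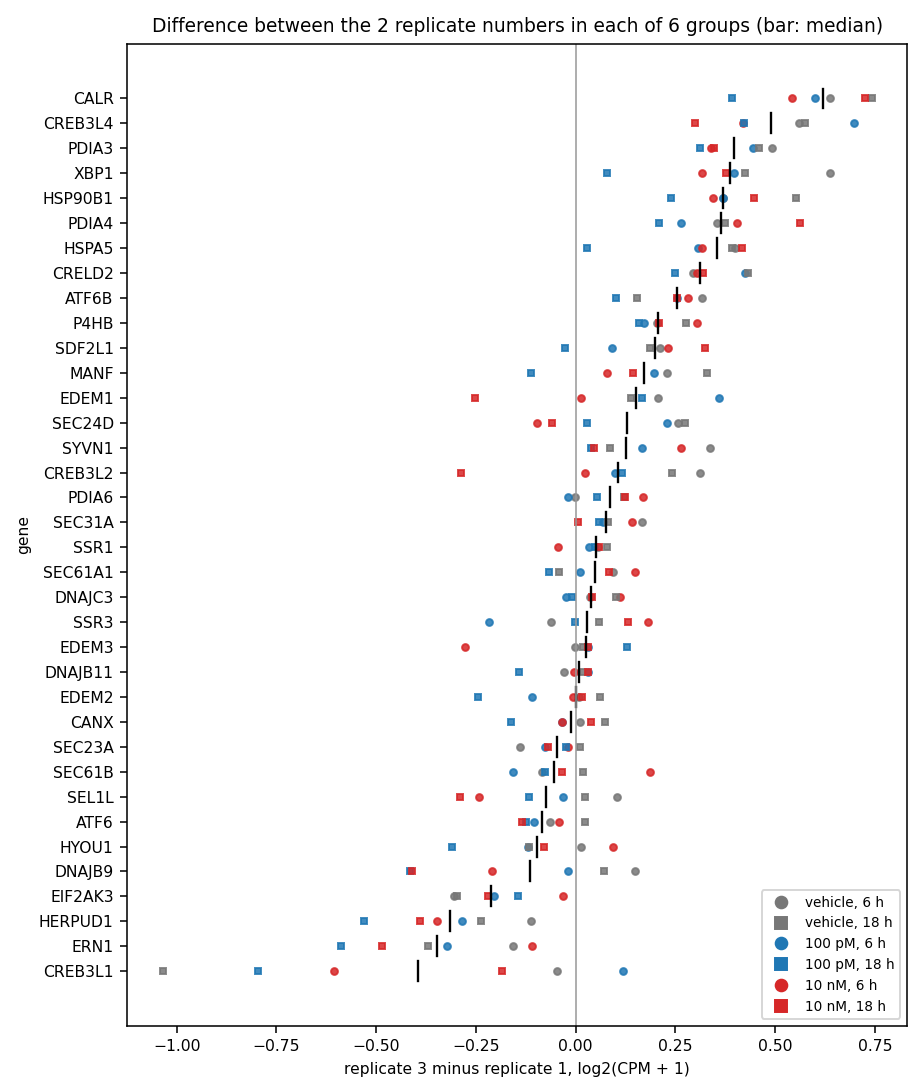
Replicate 3 minus replicate 1 on the log2(CPM + 1) scale (horizontal) for each of the 36 genes (rows, sorted by their median, shown as a bar), with 1 point for each of the 6 groups (colour for dose, shape for time). The points of CALR, CREB3L4, PDIA3 and XBP1 all lie above 0 and those of ERN1, HERPUD1 and EIF2AK3 all lie below it.

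Beside the 36, another 80 genes of the same compartments were listed, of which 79 were in the table and 78 were tested. At 10 nM, 21 of the 78 rose and 5 fell at 6 h (26.9% and 6.41%, median log2 0.13), and 28 rose and 4 fell at 18 h (35.9% and 5.13%, median 0.19), read against the same shares of all genes as above. Scaled by total counts alone, 14 rose and 10 fell at 6 h, and 23 rose and 5 fell at 18 h. Rises then made up 58.3% and 82.1% of their calls, against 39.9% and 45.7% of the calls on all genes. With the block 31 rose and 9 fell at 6 h, and 40 rose and 8 fell at 18 h. That fit called 51.3% and 61.5% of the 78, against 62.4% and 56% of all genes. The genes that rose most at 6 h were WFS1 (1.46 ± 0.15), an ER membrane protein of calcium balance, PDIA5 (0.91 ± 0.29), a disulfide isomerase, and SRPRB (0.89 ± 0.09), a subunit of the signal recognition particle receptor. At 18 h they were PDIA5 (1.98 ± 0.29), MCFD2 (1.25 ± 0.10), a cargo receptor partner, and SEC62 (0.96 ± 0.10), a translocation factor. Among the genes that fell, ERO1LB (-0.53 ± 0.17), an ER oxidase, and FKBP2 (-0.39 ± 0.11), a prolyl isomerase, did so at 6 h, and AGR2 (-0.90 ± 0.16), a disulfide isomerase relative, and UBE2J1 (-0.48 ± 0.08), a ubiquitin-conjugating enzyme, at 18 h. These 10 values had edgeR adjusted p of 2.73e-05 to 0.0321.

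At 10 nM, 22.6% of all genes tested were called higher and 19.4% lower at 6 h, and 19.0% and 15.2% at 18 h. Among those 78, the further translocation, signal peptidase and glycosylation genes numbered 21, with 6 higher and 1 lower at 6 h and 10 higher and 0 lower at 18 h. The further COPII, COPI and cargo genes numbered 23, with 7 higher and 0 lower at 6 h and 10 higher and 1 lower at 18 h. Of the 14 further folding genes, 4 were higher and 3 lower at 6 h, and 5 higher and 1 lower at 18 h. Of the 9 further degradation genes, 1 was higher and 1 lower at 6 h, and 2 higher and 2 lower at 18 h. Of the 11 further signalling genes, 3 were higher and 0 lower at 6 h, and 1 higher and 0 lower at 18 h. At 100 pM, 1 of the 78 was higher at 6 h (1.28%) and 6 at 18 h (7.69%), and 0 were lower. Of all genes, 2.88% and 6.57% were called higher and 0.606% and 3.89% lower. With the block these counts became 6 higher and 1 lower at 6 h and 14 higher and 7 lower at 18 h, which is 8.97% and 26.9% of the 78, against 12.2% and 34.1% of all genes in that fit.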

How the data were processed

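RNA-seq of 12 T47D libraries, 2 in each of 6 groups, was deposited by the authors as 1 table of whole-number read counts per gene (20114 genes, of which 2709 had no count). The submitters' processing notes name STAR, DESeq2 and hg19. The sources used here do not state versions, the counting tool, the annotation or the strand setting, so overlapping genes may share reads. Groups were taken from the sample labels.

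Library totals were 34204970 to 41373890 counts, so precision is set mainly by the 2 libraries per group. Genes with too few counts were removed by edgeR's filterByExpr, which left 13872, and libraries were scaled by TMM. The CPM values printed use that scaling. One quasi-likelihood model with 6 groups was fitted over all 12 libraries (6 residual degrees of freedom) with edgeR 4.0.16 and limma 3.58.1 in R 4.3.3, with Benjamini-Hochberg adjustment over all genes tested. SE was derived from the test, as the absolute log2 fold change divided by the square root of its F statistic. The procedure was run on simulated counts that held no difference between replicate numbers. That run does not show how the fit without the block behaves on these libraries.

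Same-numbered libraries deviated together in every pair of groups (correlation of deviations from the group means 0.604 to 0.819 over 15 pairs of groups). The numbers therefore pair the libraries, though what they share is not stated. The fit with replicate number as a block was kept as an alternative, and it lowered the biological coefficient of variation from 0.163 to 0.0678. The other alternatives were no filter on low counts, relative log expression (RLE) size factors, total counts, the libraries of that time alone, DESeq2 1.42.0, and each library left out. None of these included the block, so leaving out a library also unbalanced the replicate numbers between the groups compared.

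The 36 genes and the other lists were chosen with earlier results of these data known. Library values are printed for HSPA5, XBP1, ATF6, ERN1 and EIF2AK3 and, in each comparison of dose, for the 3 genes with the largest called rise and the 3 with the largest called fall. Those of SYVN1, P4HB and SSR3 were added after their values were seen. Of the other ER genes, those named are the 3 with the largest called rise and the 3 with the largest called fall at each time, at an average log2 CPM of at least 2, except that 1 gene is not reported here. Promoter sequences are from RefSeq on GRCh38.p14, and no coordinate of the hg19 counts was used.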

Additional observations from a re-analysis of the deposited data

Results flagged for a closer look

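The 10 nM effect differed between the times for 3 of the 36 genes by a test of the difference itself (edgeR quasi-likelihood interaction). The difference in log2 fold change, 18 h minus 6 h, was -0.81 for SEC24D, -0.73 for SYVN1 and -0.71 for HYOU1. In each, both 10 nM libraries at 6 h stood above all other libraries. None of the 3 calls held under all 13 alternatives run: HYOU1 was lost in 8 (without any 1 of its libraries), SYVN1 in 7 (with total counts, edgeR adjusted p = 0.0544, and without 6 of its libraries) and SEC24D in 6 (each without 1 library). Groups of 2 libraries are too small for a check of single outlying libraries.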

How the results depend on the processing

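Of 70 calls on the 36 genes, 36 held under every alternative run. The replicate block lost none of the 70 calls. Calls it gained that are not given above were, at 10 nM against 100 pM for 6 h, CALR (-0.29), DNAJB9 (0.49), P4HB (0.31), ERN1 (0.52), ATF6B (-0.18) and SSR1 (0.16), and for 18 h CALR (-0.28), CRELD2 (-0.20), SYVN1 (0.31), EIF2AK3 (-0.30), ATF6B (0.17) and SEC61B (0.25). It changed no other call. The count of the 36 called at 100 pM for 6 h (2) was 1 with total counts and 1 with that time alone. At 100 pM for 18 h (2) it was 10 with the block and 6 with DESeq2. At 10 nM against 100 pM for 18 h (15) it was 9 with that time alone and 10 with no filter or with total counts. For the 10 nM difference between times (3) it was 11 with the block and 6 with DESeq2. Without 1 library the counts at 6 h ranged over 0 to 2 (100 pM), 12 to 15 (10 nM) and 9 to 13 (10 nM against 100 pM), those at 18 h over 0 to 2, 10 to 15 and 7 to 11, and that of the time difference over 0 to 2. Why these counts moved was not tested. Among uncalled values of the 13 genes with library values by the naming rule, total counts turned the log2 fold change of HSPA5 (-0.0565) and DNAJC3 (-0.00167) at 100 pM for 6 h, of ATF6 (-0.024) and XBP1 (-0.0453) at 10 nM for 6 h, and of ERN1 at 10 nM against 100 pM for 18 h (-0.0355). The last also turned with no filter (-0.00835), and HYOU1 there with the block (0.00252). Fits without 1 library held no block, so the groups compared then differed in replicate number too. Leaving out 1 library turned uncalled values of the same genes over these ranges. At 100 pM for 6 h they were HSPA5 -0.19 to 0.21, MANF -0.063 to 0.19, EIF2AK3 -0.20 to 0.11 and CREB3L4 -0.44 to 0.29. At 10 nM for 6 h they were HSPA5 -0.33 to 0.067, EIF2AK3 -0.26 to 0.056 and XBP1 -0.19 to 0.45. At 10 nM against 100 pM for 6 h they were HSPA5 -0.30 to 0.030 and EIF2AK3 -0.14 to 0.041. At 100 pM for 18 h they were HSPA5 -0.059 to 0.33, EDEM3 -0.094 to 0.035, ERN1 -0.20 to 0.40, EIF2AK3 -0.20 to 0.10 and CREB3L4 -0.10 to 0.48. At 10 nM for 18 h they were SEL1L -0.20 to 0.081, ERN1 -0.12 to 0.37 and XBP1 -0.23 to 0.21. At 10 nM against 100 pM for 18 h they were HSPA5 -0.040 to 0.40, HYOU1 -0.15 to 0.16, SEL1L -0.042 to 0.22 and ERN1 -0.25 to 0.35. Of all genes, the block called 1696 in place of 483 at 100 pM for 6 h and 4728 in place of 1450 for 18 h (DESeq2 849 and 2231, that time alone 655 at 18 h). At 10 nM against 100 pM it called 8231 in place of 5127 at 6 h and 6958 in place of 3635 at 18 h, and at 10 nM for 18 h 7767 in place of 4734. For the time difference of 10 nM it called 4863 in place of 1462 (DESeq2 2294), and for that of 100 pM 777 in place of 2 (DESeq2 105, no filter 5, RLE 1, total counts 1). Without 1 library they were 221 to 308 and 512 to 845 at 100 pM, and 467 to 860 for the time difference of 10 nM. At 10 nM against 100 pM they were 3281 to 4242 at 6 h and 2286 to 2900 at 18 h, and for the time difference of 100 pM 0. Rises made up 53.8% of the genes called at 10 nM for 6 h, and 39.9% with total counts. With 2 libraries a group, a comparison of dose rests on 4 libraries and a time difference on 8, and where 1 library of a group was left out, its partner was taken to have the spread of the other groups.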
